A study of Homo sapiens with 6 samples.

Results

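The data described here are 1302 bins of 20 bp in 5′ UTRs, all of them listed in each of 3 CELF1 RNA immunoprecipitations from melanoma cells. CELF1 (also CUGBP1) was precipitated with an anti-CUGBP1 antibody from formaldehyde-fixed lysates of SK-Mel-103 and UACC-62, both established human melanoma lines carrying no further modification or treatment per the labels. The RNA recovered in the precipitate (IP) was sequenced next to RNA of the lysate before precipitation (input), in 1 IP of SK-Mel-103 (replicate 1) and 2 of UACC-62 (replicates 1 and 3), each with an input of the same number. A precipitate with control IgG was not analysed here. A bin was a member when it stood in all 3 lists, no minimum of reads being set, when its centre lay in a 5′ UTR of a protein-coding transcript (GENCODE, GRCh37) and when the centre lay in no coding region or 3′ UTR. Bins common to the 3 lists numbered 282942 in all, and besides the members they comprised 73870 coding bins, 180118 bins of 3′ UTRs, 11589 intronic bins and 16063 bins beyond protein-coding genes. The 1302 members belonged to 438 genes, of which 243 held a single bin, 77 held 2 and 118 held 3 or more. At most 47 bins fell in 1 gene (TULP4).

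CELF1 is an RNA-binding protein of the CUGBP/ETR-3-like family, known to regulate splicing in the nucleus and decay and translation of mRNAs in the cytoplasm. Its best known sites are GU-rich elements (GREs) in 3′ UTRs. The 5′ UTR is the stretch that a scanning ribosomal subunit crosses before the start codon, and it can hold upstream open reading frames, iron-responsive elements or other structures that set how often an mRNA is translated. CELF1 has been described at the 5′ ends of a few mRNAs, among them CEBPB and CDKN1A. In fixed and sonicated lysates a read marks a fragment that was in the precipitate, not the nucleotides touched by the protein.

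Bins of genes that the results turn on are shown here as they read on the transcript strand (GRCh37), 5′ to 3′, with T for U. The first set consists of bins rich in IP reads and with far fewer input reads, in which capitals mark unbroken runs of at least 6 G or C (HNRNPLL has none). They lay in NKD2 (chr5:1009141-1009160, + strand), SSH3 (chr11:67070981-67071000, +), NPTX1 (chr17:78450261-78450280, -), BEND3 (chr6:107436341-107436360, -) and HNRNPLL (chr2:38830021-38830040, -).
NKD2: aGCGCGGGGCCCGGCGGGGC
SSH3: tgccaGGCCCGGGtGGCGCC
NPTX1: cgaGCCGGGCCCGGagcgcc
BEND3: ctCCCCCCCacgtGGCGCCC
HNRNPLL: cggagacggaggaggaggag
The second set shows bins of genes with high IP over input across many neighbouring bins, in which capitals mark TGT (UGU in the RNA), the core of the GRE. Those of ARAP1 and SYMPK were picked because they hold a GRE by the definition used below, as do 2 of the 6 bins of ARAP1 and 1 of the 14 of SYMPK, and they are not the bins richest in reads: the ARAP1 bin had 9, 17 and 9 IP reads and the SYMPK bin 9, 11 and 4. These were in CHORDC1 (chr11:89942021-89942040, -), ARAP1 (chr11:72423881-72423900, -), SYMPK (chr19:46358601-46358620, -) and CREBL2 (chr12:12764961-12764980, +).
CHORDC1: gttagagTGTggaggccatt
ARAP1: gTGTcTGTcTGTcttgcatc
SYMPK: cTGTGTgacTGTgatggatg
CREBL2: catcagggaagcgaacTGTt
The last sequence shows, without a marked part, a bin below input, from FTL (chr19:49468741-49468760, +).
FTL: ttagctccttcttgccaacc

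Values given in threes refer throughout to SK-Mel-103 first, then to replicate 1 and last to replicate 3 of UACC-62. The lists held 10958459, 11333805 and 14436573 IP reads. The input reads of the same bins were 8453517, 10161917 and 8900292. Melanocytic markers checked the labels in part, since SOX10 was listed in all 3 samples, whereas MITF had 18 input reads in SK-Mel-103 against 6034 and 5000 in UACC-62, and TYR, DCT and S100B had no listed bin in SK-Mel-103. PMEL and TYRP1 had none in any sample. Keratinocyte markers KRT5, KRT14 and KRT1 had no listed bin either, and of the other lineages LUM alone was listed in all samples. SK-Mel-103 had 1 sample, so spread between replicates is given for UACC-62 only (n = 2). Nothing in the labels says whether the UACC-62 replicates came from separate cultures.

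Common bins were a smaller part of the listed 5′ UTR bins than of those in other exons. The 3 lists held 5644, 4546 and 5994 bins in 5′ UTRs, and 23.1%, 28.6% and 21.7% of these were common to all lists. In coding regions the shares were 39.7%, 44.9% and 35.8%, and in 3′ UTRs 56.7%, 58.3% and 47.4%. Of the 11279 bins of 5′ UTRs found in at least 1 list, 7676 stood in 1 list only. Members took 0.181%, 0.149% and 0.163% of all listed IP reads and 0.220%, 0.236% and 0.203% of the input reads. The median member had 9, 8 and 11 IP reads, so that single bins are imprecise and values are given below mostly as reads or as sums over the bins of a gene. Reads were not tagged by molecular identifiers, and every interval given covers counting error only. Wilson intervals of shares also treat bins as independent, which bins of the same gene are not.

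Common bins of 5′ UTRs were intermediate between those of coding regions and 3′ UTRs in each sample. IP over input is given as the log2 ratio of IP to input reads, each divided by its total over the listed bins, after adding 1 read to both. The bins had been listed for their IP reads with the input as covariate, and the ratio is therefore a description of the list and not a test of binding. The median over members was -0.16 in SK-Mel-103 and -0.51 and -0.17 in UACC-62 (mean -0.34 ± 0.24, SD, n = 2). Coding bins lay lower, at -0.79 in SK-Mel-103 and -1.20 ± 0.12 (SD, n = 2) in UACC-62. Bins of 3′ UTRs lay higher, at 0.50 and 0.43 ± 0.14 (SD, n = 2). The order of the 3 regions was thus the same in all 3 samples, as the plot by transcript region shows.

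**Figure D1:**
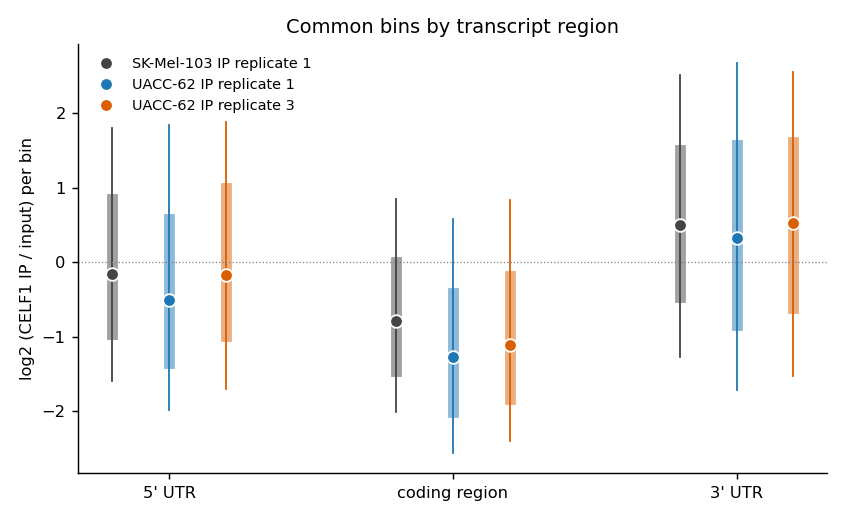
IP over input of common bins by transcript region (y axis, log2 ratio per 20-bp bin) in the 3 samples; points are medians, thick bars are interquartile ranges and thin lines run from the 10th to the 90th percentile. In each sample the 5′ UTR median (-0.16, -0.51 and -0.17) lies above that of coding regions and below that of 3′ UTRs, with wide overlap of the bins.

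At least 2-fold more IP than input was found in all 3 samples for 109 of 1302 members (8.37%, Wilson 95% interval 6.99 to 10.0%). Over all common bins of protein-coding exons this share was 15.8%, with 1.95% in coding regions and 21.5% in 3′ UTRs. The members were thus below this background, which is made up mostly of 3′ UTR bins. At least 2-fold less IP than input in all samples was found for 123 members (9.45%) against a background of 14.0%, with 29.2% in coding regions. When the reads of each gene were summed over its common 5′ UTR bins, 50 of 438 genes (11.4%) were at least 2-fold above input in every sample and 46 (10.5%) at least 2-fold below.

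Within the same gene, 5′ UTR bins also lay between coding and 3′ UTR bins in the median over all genes, though not over genes whose members were in introns of the principal transcript, which are described below. In the 371 genes with common bins in both places, the 5′ UTR exceeded the coding region by a median of 0.37, 0.30 and 0.35 on the log2 scale. The difference was above 0 in all 3 samples for 161 genes, below 0 in all for 50, and of mixed sign for 160. Against the 3′ UTR of the same gene (384 genes), the medians were -0.36, -0.41 and -0.27, with 90 genes above in all samples and 161 below. An exact sign-flip permutation test over the 3 samples gave p = 0.25 (two-sided) for either comparison, the smallest value that 3 samples allow. Any 3 differences of the same sign give this value, and replicates of the same line were counted as separate samples. The test could therefore not decide either comparison. In the 107 genes with at least 3 bins on either side the median differences were 0.19, 0.07 and 0.20 from coding regions and -0.63, -0.85 and -0.51 from 3′ UTRs.

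A bin can lie in the 5′ UTR of a minor transcript and in an intron of the principal one, and these bins stood apart from the rest. Taking the Ensembl canonical transcript of each gene as the principal one, 992 members (76.2%, 338 genes) lay in its 5′ UTR, 253 (19.4%, 89 genes) in one of its introns, 49 outside it, and 8 in genes for which no canonical transcript was marked. Members in canonical 5′ UTRs were below input, with medians of -0.37, -0.76 and -0.48. Members in canonical introns were above it, with medians of 0.52, 0.72 and 1.11. They provided 59 of the 109 bins at least 2-fold above input, from 23 genes. Common bins in introns of any protein-coding gene, which are no members, had medians of 1.04, 1.65 and 1.62. The libraries had been made after removal of ribosomal RNA, and whether reads in these bins came from an alternative first exon or from unspliced RNA was not tested.

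Of the 10 highest 5′ UTRs, 4 were of the intronic kind, and their own coding regions were near or below input. CHORDC1, a co-chaperone of HSP90, had 24 common bins, all within a canonical intron and 779 to 3859 nt upstream of the start codon in the transcript that holds them. Its IP reads summed to 683, 441 and 159, against 83, 25 and 10 input reads. The 5′ UTR of CHORDC1 was thus at 2.65, 3.93 and 3.16 on the log2 scale, while its 15 coding bins were below input in every sample (-0.88, -1.42 and -0.77). TTC3, a ubiquitin ligase, had 21 such bins with 233, 224 and 134 IP reads against 49, 31 and 18 of input (1.85, 2.66 and 2.13), and its 109 coding bins were at -0.50, -0.24 and 0.30. SYMPK encodes symplekin, a scaffold of the machinery that forms mRNA 3′ ends. Its 14 bins held 223, 214 and 117 IP reads against 74, 21 and 7 input reads, or 1.2, 3.13 and 3.18, with coding bins at -0.37, -0.57 and -0.58.

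ARAP1, which stimulates GTP hydrolysis by small GTPases, had 6 bins, all intronic in the canonical transcript, with 59, 140 and 53 IP reads. Its input reads were 9, 3 and 0. For UACC-62 replicate 1 the ratio of IP to input was 41.8-fold (exact 95% counting interval 14.0 to 205), and for UACC-62 replicate 3, which had no input read, IP was at least 10.9-fold higher when set against a floor of 3 reads. SK-Mel-103 was lower than both, at 2.21 on the log2 scale. In its 3′ UTR ARAP1 had 2 common bins, at -0.27, 0.74 and 1.18. EIF3L, a subunit of the initiation factor eIF3, had 1 bin with 7, 7 and 6 IP reads and 0, 1 and 0 input reads, too few to give its ratio precisely, whereas its 54 coding bins lay at -1.73, -2.35 and -2.20. Over the 71 genes with canonical-intron members and coding bins, the 5′ UTR exceeded the coding region by a median of 1.16, 1.68 and 1.77. It also exceeded the 3′ UTR of the same gene, by 0.71, 0.74 and 0.78 over 75 genes, of which 38 were above in all samples and 13 below, so that the order against the 3′ UTR was the reverse of that over all genes. Over the 302 genes with members in the canonical 5′ UTR and coding bins the difference was 0.27, 0.09 and 0.19, and against the 3′ UTR it was -0.52, -0.57 and -0.44 (308 genes).

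**Figure D2:**
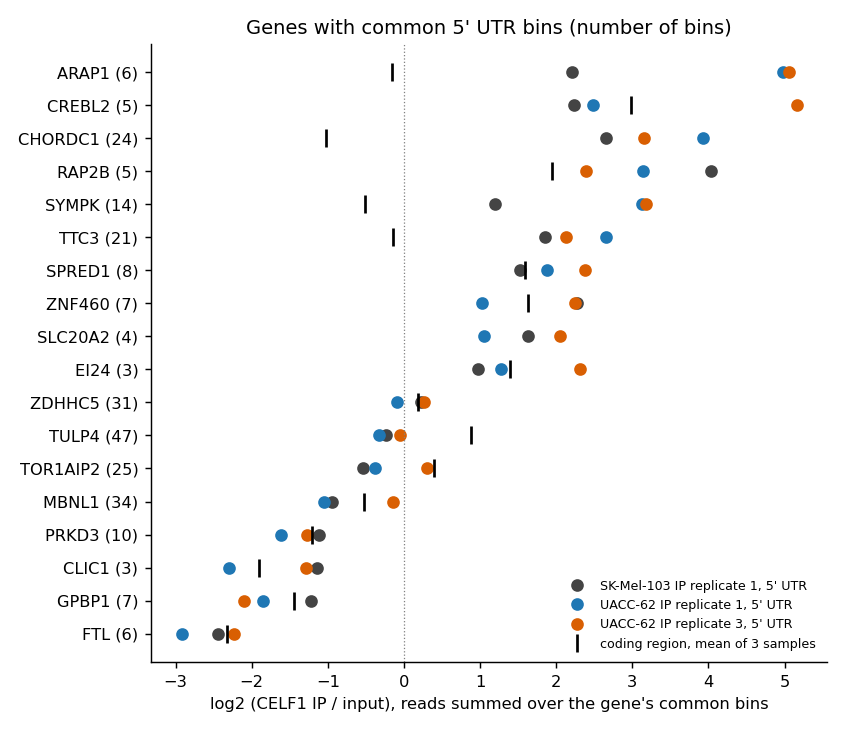
IP over input of the highest and lowest ranked genes and those with most common 5′ UTR bins, as named in the text (x axis, log2 ratio of summed reads; number of bins in brackets), with points for the 3 samples and a tick for the coding region of the gene as the mean of 3 samples. CHORDC1, SYMPK, TTC3 and ARAP1 lie far right of their ticks, while FTL and SPRED1 lie close to them; SLC20A2 has no common coding bin and no tick.

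In 5 of the other high genes the 5′ UTR belonged to the canonical transcript and the coding region was above input as well. RAP2B encodes a RAS-related GTPase, and its 5 bins held 63, 117 and 101 IP reads against 2, 11 and 11 of input (4.04, 3.14 and 2.39), with coding bins at 1.69, 2.10 and 2.06 and 3′ UTR bins at 2.15, 2.64 and 2.11. CREBL2, a basic leucine zipper protein, had 42, 80 and 231 IP reads against 6, 12 and 3, or 2.24, 2.48 and 5.16, and its 3′ UTR was at 2.98, 3.98 and 4.03. SPRED1, an inhibitor of the RAS to ERK pathway, stood at 1.52, 1.88 and 2.38 over 8 bins, close to its coding region at 0.91, 1.63 and 2.23. In all 3 mRNAs the 5′ UTR, the coding region and the 3′ UTR were above input in every sample.

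EI24, an endoplasmic reticulum protein known from autophagy, was similar, with 0.97, 1.27 and 2.31 in the 5′ UTR and 1.14, 0.99 and 2.06 in the coding region. The zinc finger gene ZNF460 was at 2.28, 1.03 and 2.25 over 7 bins, of which 4 had more than 1 exact copy in the genome. SLC20A2, a phosphate transporter, had 4 bins in a 5′ UTR outside its canonical transcript, at 1.63, 1.05 and 2.05, and a single 3′ UTR bin at -1.22, -0.74 and -0.11. Across the genes with members in the canonical 5′ UTR, the ratio of the 5′ UTR went along with that of the coding region (Pearson r = 0.54, 0.66 and 0.71 over 302 genes, which share libraries and are not independent replicates). For the 71 genes with members in canonical introns the same r was 0.18, 0.43 and 0.44.

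In the lowest genes the coding region was below input in every sample as well. FTL, the light chain of ferritin, had 216, 196 and 464 IP reads against 906, 1335 and 1341 of input in 6 bins 14 to 134 nt from the start codon. Its log2 ratios were -2.44, -2.92 and -2.23, beside -2.21, -2.53 and -2.24 in its coding region. Of its 6 bins 4 had further exact copies in the genome. CLIC1 (3 bins, -1.14, -2.30 and -1.29), GPBP1 (7 bins, -1.22, -1.85 and -2.10) and the protein kinase gene PRKD3 (10 bins, -1.11, -1.62 and -1.28) were also among the 5 lowest.

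Apart from CHORDC1, the genes with the most common bins had 5′ UTR ratios around or below 0. TULP4 had 47 bins, spread from 18 to 1538 nt upstream of its start codon, with 469, 580 and 851 IP reads against 427, 653 and 543 of input. The 5′ UTR of TULP4 (-0.24, -0.33 and -0.05) was below its coding region (0.51, 1.10 and 1.05), which in turn was below its 3′ UTR (2.36, 3.21 and 2.78). MBNL1, a splicing regulator known as an antagonist of CELF1 in myotonic dystrophy, showed the same order between 5′ UTR (34 bins, -0.95, -1.05 and -0.14) and 3′ UTR (1.02, 1.17 and 1.18). In ZDHHC5, a palmitoyltransferase, 31 bins were at 0.23, -0.09 and 0.26, and in TOR1AIP2 25 bins were at -0.54, -0.38 and 0.30.

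The study itself went on only with peaks of more than 30 reads. Members with more than 30 IP reads in every sample numbered 31 in 17 genes (2.38%, against a background of 11.1% over common exonic bins). At the edge of this filter, 12 bins had 31 to 35 reads in their lowest sample and 8 had 26 to 30. Of the 31 bins, 6 were at least 2-fold above input in all samples and 6 at least 2-fold below. The 6 above input were a bin of UGT8 and those of NKD2, SSH3, NPTX1, BEND3 and HNRNPLL, whose sequences are given above. Apart from the UGT8 bin, all had at least 70% G and C. In NKD2, an inhibitor of Wnt signalling, the bin held 498, 373 and 721 IP reads against 19, 28 and 24 of input (4.27, 3.53 and 4.15), the highest IP count among members in the UACC-62 samples. The bin of SSH3, a phosphatase of cofilin, held 444, 262 and 468 IP reads and no input read in any sample, or at least 114-fold, 78.3-fold and 96.2-fold more IP against a floor of 3 input reads per library. It lay outside the canonical transcript of SSH3, 688 nt upstream of the start codon in the transcript that holds it.

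The other bins of this kind had few input reads. NPTX1, neuronal pentraxin, had 109, 61 and 87 IP reads against 1, 3 and 0, and BEND3 had 33, 44 and 162 against 0, 2 and 2. HNRNPLL, a splicing regulator, had 31, 69 and 101 IP reads against 0, 2 and 4, or 30.9-fold (8.24 to 261) and 15.6-fold (5.90 to 58.2) in the UACC-62 replicates. Its coding region was depleted (-0.84, -1.77 and -1.60). NKD2, NPTX1 and SSH3 had no common bin in their coding region or 3′ UTR at all, and BEND3 had none in its coding region.

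FBLN2, a protein of the extracellular matrix, was above input in SK-Mel-103 (44 reads against 9) and UACC-62 replicate 1 (59 against 10), but not in replicate 3 (33 against 20). ARSI, an arylsulfatase, differed between the samples as well, with 2 bins at 2.54, 1.12 and -0.53. In RNF14, a ubiquitin ligase, a bin of 80% G and C held 109, 54 and 44 IP reads against 155, 45 and 44 of input.

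**Figure D3:**
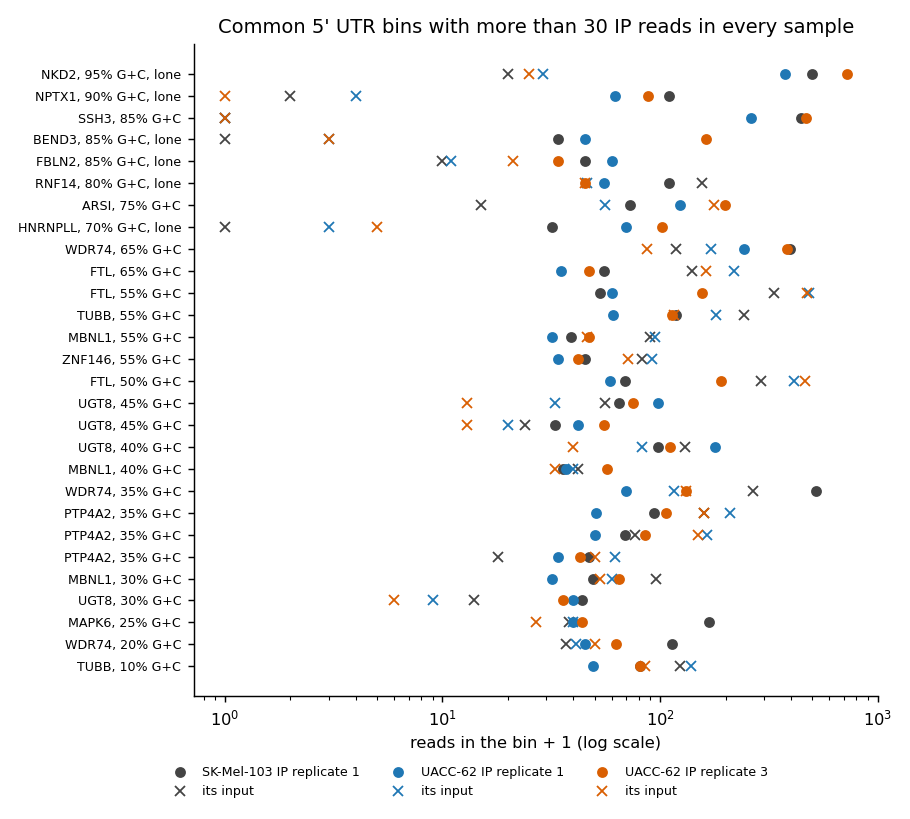
Reads in members with more than 30 IP reads in every sample, in the genes reported here (x axis, reads + 1 on a log scale), ordered by their share of G and C; circles are IP reads and crosses of the same colour the input reads of that sample, and bins without a listed neighbour are marked lone. The circles of NKD2, NPTX1, SSH3, BEND3 and HNRNPLL lie far right of their crosses, while in FTL the crosses lie right of the circles.

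Of these 31 bins 6 stood alone, with no listed bin directly beside them. Lone members numbered 149 in all (11.4%), against 4.75% of common coding bins and 3.13% of common 3′ UTR bins. Such lone members had medians of 0.21, 0.11 and 0.47, and 22.1% of them were at least 2-fold above input in all samples, against 6.04% of members with a listed bin on either side. In 3′ UTRs the order was the opposite, with 7.79% for lone bins and 24.1% for bins listed on either side. Lone members included NKD2, NPTX1, BEND3, HNRNPLL, FBLN2 and RNF14. In the 44 genes whose only common exonic bins were in the 5′ UTR, 32 of 54 members were lone and the medians were 1.32, 0.98 and 1.11. With sequenced reads of 40 nt a fragment covers more than 1 bin, and the part of read placement, amplification or mapping in these narrow piles was not tested.

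Over all members IP over input was higher in bins rich in G and C, though not over those in canonical introns. Of the members, 20.4% had more than 60% G and C, compared with 41.4% of all 5′ UTR bins of the annotation and 34.2% of the other 5′ UTR bins of the same genes. In the 182 members with at least 70% G and C the medians were 0.53 in SK-Mel-103 and 0.46 ± 0.05 (SD, n = 2) in UACC-62, and 22.5% were at least 2-fold above input in all samples. In the 326 members with at most 35% they were -0.37 and -0.64 ± 0.19, with 8.28%. Over the same classes coding bins went from -0.79 to -0.64 in SK-Mel-103, and 3′ UTR bins from 0.63 down to 0.30. Among members in canonical 5′ UTRs alone, the medians in the class of at least 70% were 0.50, 0.24 and 0.30, against -0.53, -0.96 and -0.82 at 35% or less, and 31 of the 43 bins at least 2-fold above input belonged to the first class. Members in canonical introns were above 0 in every class but did not rise with G and C. Their medians were 1.10, 1.05 and 1.11 at 35% or less and 0.62, 1.04 and 1.11 at 70% or more (12 bins). Base composition and IP over input thus moved together in canonical 5′ UTRs, mainly above 55% G and C. There the medians were -0.51, -0.88 and -0.53 at 50 to 55%, and -0.05, -0.40 and -0.08 at 60 to 65%. The part of the library chemistry in this was not tested.

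**Figure D4:**
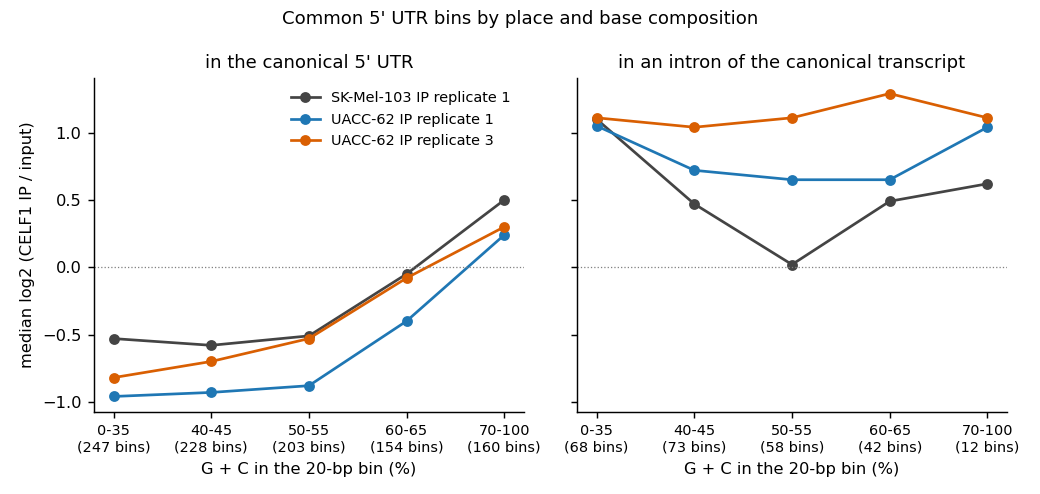
Median log2 IP over input of members (y axis) by the share of G and C in the bin (x axis, %), for members in the canonical 5′ UTR (left) and in a canonical intron (right), with a line for each sample and the number of bins below each class. In canonical 5′ UTRs the medians run from -0.53, -0.96 and -0.82 to 0.50, 0.24 and 0.30; in introns they are above 0 in every class, the last of which holds only 12 bins.

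Part of the members had a bin sequence with further exact copies in the genome. Reads were 40 nt long, and whether the reads themselves could be placed uniquely was not tested. The 20-nt sequence of 212 members (16.3%) occurred more than once in the genome, and that of 51 more than 20 times. All 9 bins of UGT8, a galactosyltransferase of myelin lipids, were of this kind, and the bin with 97, 178 and 110 IP reads had 14344 exact copies. Its 9 bins summed to -0.04, 1.30 and 1.29. In PTP4A2, a phosphatase, 16 of 21 bins had further copies (-0.78, -1.68 and -1.50), and in MAPK6, an atypical MAP kinase, 12 of 21 had them (1.2, -0.07 and -0.07). Members with a single copy had medians of -0.18, -0.56 and -0.21, near those of all members. A further 39 members in 19 genes lay in exons of other annotated RNAs. In WDR74, 5 of 6 bins coincided with the U2 small nuclear RNA gene RNU2-2P. Bins of WDR74 held up to 522 IP reads, with sums of 0.70, -0.48 and 0.29, while the coding region of WDR74 was at -1.77, -2.40 and -1.64.

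Genes with known regulation at the 5′ end were read against all 7796 genes with common exonic bins, of which 438 (5.62%) had members. None of CEBPB, CDKN1A and CDKN1B, targets of CELF1 at the 5′ end, had a common bin there, although all 3 had common bins in other exons. Among 15 genes known for upstream open reading frames 13 had common exonic bins and 5 of these (38.5%) had members. None of the 5 was at least 2-fold above input in all samples and 2 were at least 2-fold below, beside 11.4% and 10.5% over all genes with members. With so few genes in a list these counts are a description only. The stress factor ATF4 was at -1.65, -2.54 and -1.05, and AMD1, an enzyme of polyamine synthesis, at -1.47, -2.22 and -1.06. AZIN1, which spares ornithine decarboxylase from degradation, was at -0.39, -0.58 and 0.51, and ODC1 itself had 1 bin with 14, 7 and 14 IP reads against 10, 6 and 3. MDM2, the ubiquitin ligase of p53, was above input in all samples (0.39, 1.04 and 1.41 over 6 bins), as was its 3′ UTR (0.92, 1.75 and 1.69).

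Of 6 mRNAs with an iron-responsive element 3 had common exonic bins, and of these FTL alone (33.3%, beside 5.62% over all genes) had members. Of 15 mRNAs reported to hold an internal ribosome entry site or a long structured 5′ UTR, 5 (33.3%) had members. HIF1A (-0.74, -1.69 and -1.35) and BIRC2 (17 bins, -1.57, -1.75 and -1.05) were below input in every sample. CCND1, cyclin D1, was above it with 25, 10 and 9 IP reads against 15, 2 and 3. These few reads leave the direction open, as the counting intervals of the fold held 1 in every sample (0.652 to 2.62, 0.955 to 42.1 and 0.462 to 10.6). The 164 3′ UTR bins of CCND1 were at 2.30, 2.96 and 2.99. BCL2 had 1 bin with no more than 7 reads. None of these 5 genes was at least 2-fold above input in all samples and 2 were at least 2-fold below, where 11.4% and 10.5% are the shares over all genes with members.

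The 5′ terminal oligopyrimidine mRNAs, most of which encode parts of the translation machinery, had low ratios in the median over genes with members. Of 92 such genes 90 had common exonic bins and 15 of these (16.7%, beside 5.62% over all genes) had members, with medians over the 15 genes of -1.17, -1.42 and -1.20 beside -0.06, -0.53 and -0.18 over all 438 genes. None was at least 2-fold above input in all samples and 6 were at least 2-fold below, beside 11.4% and 10.5% over all genes with members. Not all were low, with RPL32 at 1.95, 0.06 and 1.11 and RPS3 at 2.25, -0.48 and 2.93. NPM1 was at -1.80, -2.43 and -1.28, VIM at -0.71, -1.60 and -0.97, and RACK1, where 2 of 3 bins were in a canonical intron, at -1.17, 0.23 and 0.40. The coding regions of NPM1, VIM and RACK1 were below input in every sample. Of 56 genes of initiation factors 50 had common exonic bins and 3 had members. EIF1AD was above input (1.37, 0.80 and 1.57), EIF4G2 below it (-2.53, -3.03 and -1.65), and EIF3L is described above.

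Among 57 genes of splicing factors and hnRNP proteins 52 had common exonic bins and 11 of these (21.2%, beside 5.62% over all genes) had members, CELF1 included. HNRNPLL was the 1 gene of the 11 at least 2-fold above input in all samples, a share near the 11.4% over all genes with members. MBNL2 was at -0.97, -0.62 and -0.89. None of 15 cell cycle genes, DEK and BIRC5 among them, had a common bin in the 5′ UTR, while all 15 had common exonic bins, a count to be read beside the 5.62% over all genes. Of 15 genes of RAS to ERK and PI3K signalling 14 had common exonic bins and DUSP6 alone had members (-0.74, -1.92 and -1.25).

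Members were located toward the start codon rather than toward the start of the transcript. The median distance from the centre of a member to the start codon was 167 nt, and 36.9% (34.3 to 39.5%) were within 100 nt of it. This share was 28.2% for all 5′ UTR bins of the annotation and 15.9% for the other 5′ UTR bins of the same genes. Within 100 nt of the transcript start lay 7.22% of members, compared with 37.9% and 29.2%. Genes with members had a median length of 537 nt for their longest annotated 5′ UTR, against 289 nt for genes with common coding bins but no member. Members within 50 nt of the start codon had medians of -0.37, -0.79 and -0.52, and those beyond 500 nt -0.04, -0.20 and 0.20.

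**Figure D5:**
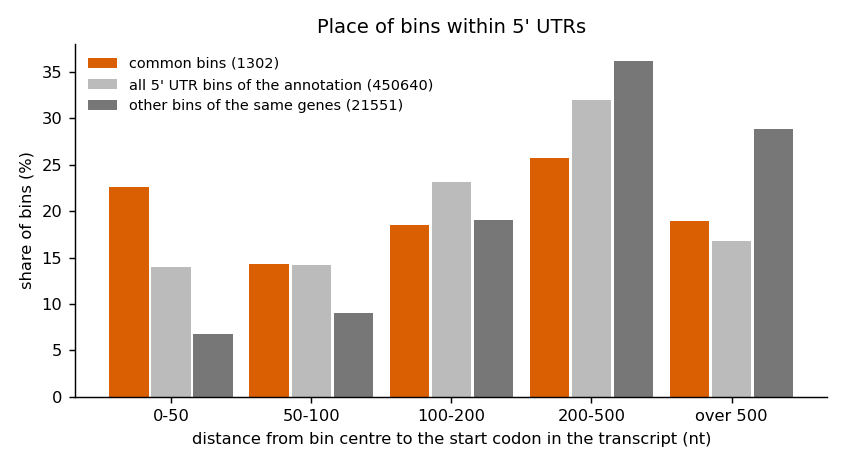
Share of bins (y axis, %) by distance to the start codon along the transcript (x axis, nt), for the 1302 members, all 450640 5′ UTR bins of the annotation and the 21551 other 5′ UTR bins of the genes with members. Of the members 22.6% are within 50 nt, against 14.0% and 6.81%.

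GREs were rare in members. The sequences searched on the transcript strand were UGUUUGUUUGU and UGUGUGUGUGU, overlapping hits counting once per bin, with up to 2 mismatches. They were found in 10 members (0.768%, Wilson 95% interval 0.418 to 1.41%), in 0.486% of all 5′ UTR bins of the annotation, in 0.650% of the other 5′ UTR bins of the same genes, in 0.213% of common coding bins and in 1.45% of common 3′ UTR bins. The interval of the members held the shares of either set of 5′ UTR bins. It treats bins as independent draws, which bins of the same gene are not, so it does not decide the comparison. Of the 10 members with a GRE, 6 were in the intronic genes described above, namely 3 in CHORDC1, 2 in ARAP1 and 1 in SYMPK, and the rest in TSN, XPO1, CDK6 and TLE4. The bin of XPO1 is largely a GU repeat and has 9509 exact copies in the genome. The trinucleotide UGU was found in 25.0% of members and in 20.5% of all 5′ UTR bins, 37.2% of common 3′ UTR bins and 23.9% of common coding bins. CUG was in 35.6% of members against 39.5% of all 5′ UTR bins. In canonical introns 36.4% of members held UGU, compared with 22.5% in canonical 5′ UTRs. A match here says only that the letters occur in the bin.

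The samples resembled each other more by gene than by bin. Over the 1302 members, log2 IP over input correlated with Pearson r = 0.69 between the UACC-62 replicates and 0.66 and 0.59 between SK-Mel-103 and either of them. Over the 70 genes with at least 3 members and 30 IP reads in every sample the values were 0.93, 0.85 and 0.82. These correlations run across bins and genes of shared libraries and describe the lists only. Of the 70 genes, 19 were above 0 in all samples and 37 below 0 in all. SK-Mel-103 lay between the UACC-62 replicates in 24 genes, more than 1 log2 unit above both in HPS4 and MAPK6, and more than 1 below both in ARAP1, HP1BP3, LOXL3, SYMPK and UGT8. With 1 sample of SK-Mel-103, a difference between the lines cannot be told apart from one between samples.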

How the data were processed

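Lists of 3 CELF1 IP samples were analysed, and the 3 input samples entered as a column of these lists. The authors aligned reads of 40 nt to GRCh37 (TopHat2 2.0.4, Bowtie 0.12.7 and SAMtools 0.1.16 per the submitters' processing notes) and called 20-bp bins with Piranha against the input. The deposited read counts are whole IP reads of bins that passed only. The deposited p-values were all under 0.05. The study's methods give a false discovery rate of 0.05 for calling bins, but the lists do not say whether their p-values are corrected for multiple testing. The deposited ratio is the input covariate, which steps by a fixed amount per read, so that dividing by this step gave the reads of the input (largest deviation 0.0199 of a step; 0.01 marks no input). Input outside listed bins is unknown.

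The strand of the transcript was taken as the reverse of the listed one. Bins were placed by their centre in GENCODE 44 (mapped to GRCh37), and exact copies of each 20-mer were counted in the genome on both strands. Members and gene lists were chosen with earlier results of these data known. No count model was used, because lists of passing bins depend on the comparison of IP with input. Named were genes with a member of more than 30 IP reads in every sample, the 10 highest and 5 lowest by the least favourable sample (among genes with at least 3 members and 30 IP reads), the 5 with most members, and list genes, in full for lists of up to 15 genes and otherwise the 3 richest in IP reads. ARSI, FBLN2 and RNF14 were named by the first part. A gene that the rule names is not reported here. HPS4, HP1BP3, LOXL3, TSN, XPO1, CDK6, TLE4, RPL32 and RPS3 were named after their values were seen. IP reads of the UACC-62 replicates differed beyond sampling noise (chi-square per degree of freedom 2.81 over 1302 members), so both were kept. Alternatives covered the read filter, annotation, placement, p-value, strand, pseudocount, totals, GRE settings and leaving out either UACC-62 replicate; those on copies, other RNAs, lone bins and canonical transcripts were chosen after seeing the data. Scripts were tested on simulated data. Analyses ran in Python 3.11.15 with scipy 1.17.1, pandas 2.3.3, matplotlib 3.10.9 and numpy 2.4.6.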

Additional observations from a re-analysis of the deposited data

Results flagged for a closer look

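In 4 named genes SK-Mel-103 lay on one side of 0 and both UACC-62 replicates on the other; the difference between the lines was not tested, as SK-Mel-103 had 1 sample. Log2 IP over input of the 5′ UTR of MAPK6 was 1.2 in SK-Mel-103 and -0.07 as the mean of UACC-62, where both replicates had the same value; 12 of its 21 bins have further exact copies in the genome. UGT8, all of whose bins have further copies, was at -0.04 in the former line and 1.29 in the latter. For RACK1 these values were -1.17 and 0.32, from 6 to 25 input reads per sample. For BCL2 they were -0.05 and 0.65, from at most 7 reads in any sample.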

How the results depend on the processing

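The order of the regions within genes changed direction in 2 cases. Over genes with members in canonical introns the 5′ UTR minus 3′ UTR difference was above 0 (0.71 in SK-Mel-103, 0.76 as the mean of UACC-62), against -0.36 and -0.34 over all genes. With more than 30 IP reads required in every sample, 31 members remained, and the 5′ UTR minus coding difference went from 0.34 (mean of the 3 samples) to -0.04 over 5 genes (the cause was not tested); the median in SK-Mel-103 was then -0.53, 19.4% of members were at least 2-fold above input in all samples, none of the 31 held a GRE (upper Wilson limit 11.0%), and 32.3% were within 100 nt of the start codon as well as 32.3% above 60% G and C. With strands read literally 111 members were left, with 22.5% at least 2-fold above input. Reads not divided by totals moved the medians above 0, to 0.22 (SK-Mel-103) and 0.09 (UACC-62), so that a place above or below input rests on the totals used. The share at least 2-fold above input, 8.37%, became 10.1% with a pseudocount of 0.5 read, 13.7% without totals, 10.3% with totals over common exonic bins, 10.2% at a p-value under 0.01, 11.0 to 12.1% when either UACC-62 replicate was left out (2 samples then need to pass), 6.59% without lone bins and 4.33% in canonical 5′ UTRs only, where the UACC-62 median was -0.62. With whole bins inside the 5′ UTR, 32.7% were within 100 nt of the start codon. The GRE share was 0.0768% with 1 or no mismatch and 3.23% with 20 nt added on each side. Without UACC-62 replicate 1, FBLN2 in UACC-62 went to 0.00 from 1.14, and to 2.29 without replicate 3. Leaving out bins with further copies or in other RNAs moved neither median by more than the spread between UACC-62 replicates. Of 300 values of named genes under another pseudocount or other totals 234 moved by less than the spread between UACC-62 replicates; leaving out 1 of 2 replicates cannot move their mean by that much and is not counted. No paired analysis was possible because no result compares groups that share 2 replicate numbers, and each IP is already set against its own input. Median members have 8 to 11 IP reads, and this limits ratios of single bins.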
